A study of Salmo salar with 96 samples.

Results

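Skin was 1 of 7 tissues other than gonad taken from both wild and hatchery parr, the freshwater juveniles of Atlantic salmon (*Salmo salar*). It is represented by 6 of the 96 samples of the series, chosen by their tissue label. Transcripts of 220 genes were counted without amplification by nCounter, in which each RNA molecule binds a barcoded probe and the barcodes are counted. The hatchery skin came from fish 1, 3 and 4 of the Neva strain, reared under commercial farming conditions on a normal diet. Fish 1 was a male, fish 3 and 4 were females, and all 3 were immature. The wild skin came from fish 6, 7 and 8, caught by electrofishing in the Inarijoki river, with no diet recorded. All 3 were males, fish 6 immature and fish 7 and 8 mature. The parr of both origins were 3 years old. Habitat, river population, sex, maturity and the cartridge on which the RNA was read changed together between the groups, so their parts in a difference cannot be told apart.

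Fish skin is a layered tissue. A thin epidermis lies over a dermis of densely packed type I collagen, in which the scales form, and beneath it lie fat and muscle. The panel had been assembled around genes linked to age at maturity, but it also holds collagen genes, regulators of scale and bone, nuclear receptors, and signalling genes that are expressed in skin. In bulk RNA, fewer cells of a type and less RNA per cell cannot be told apart. For some close paralogs no specific probe could be made, so such pairs may share counts.

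Each skin sample gave between 123860 and 557027 gene counts. Hatchery samples had 285533 to 557027 and wild samples 123860 to 139801, without overlap (exact permutation test, two-sided, p = 0.1, the smallest p that 3 against 3 fish allow). Counts were scaled to 6 reference genes (*vdraa*, *vdrab*, *rps20*, *prkar1aa*, *rxrbaa* and *ef1ac*), and the resulting values are called normalized counts. The factors were 0.909 to 1.34 in hatchery and 1.01 to 1.44 in wild samples and overlapped (exact p = 0.5). The geometric mean of the raw positive control counts was 1399.9 to 2137.5 in hatchery and 1236.1 to 1367.8 in wild samples, without overlap (exact p = 0.1). The 8 negative control probes, which match no salmon RNA, had a scaled mean of 17.1 to 28.4 in hatchery skin and 8.83 to 10.3 in wild skin, again without overlap. Their highest probe reached 49.2, 89.9 and 129 in hatchery fish 1, 3 and 4, and 19.2, 27.3 and 19.9 in wild fish 6, 7 and 8. This was the same probe in all 6 samples and had a large part in the hatchery means. The next highest probe reached 26.0, 22.8 and 34.5 in the hatchery fish and 16.15, 18.7 and 14.7 in the wild fish. The hatchery samples were read on 3 cartridges and the wild samples on 2, and 0 cartridges were shared.

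In wild skin all 7 genes of the list of collagens and *aebp1* were lower, and 3 early response genes, 3 CEBP genes and the vitamin D receptor genes *vdraa* and *vdrab* were higher. Of the 153 genes whose mean reached 20 normalized counts, the background threshold of the study, in hatchery or wild skin, 84 passed edgeR's quasi-likelihood test at an adjusted p under 0.05, which is 54.9% of those tested. Of these, 73 were lower in wild skin (47.7%) and 11 were higher (7.19%). This split turned with the scaling. With TMM, which sets the bulk of the panel equal instead of the 6 reference genes, 42 genes passed (27.5%), 15 of them lower (9.8%) and 27 higher (17.6%). The median log2 fold change of wild over hatchery over all tested genes was -0.60 with the reference genes and 0.04 with TMM. Among the reference genes themselves, *vdraa* and *vdrab* were higher in wild skin and *rxrbaa* was lower, with adjusted p-values of 0.0035, 0.0088 and 0.044.

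The same direction was called under both scalings for 26 genes (17.0% of the 153), 15 lower and 11 higher in wild skin. All 26 had normalized counts that did not overlap between the 3 wild and the 3 hatchery fish, as had 98 of the 153 tested genes. None of the 26 changed sign in any of 34 other fits. These fits reuse the same skin samples and include the TMM fit by which the genes were chosen, so they are no separate support. With any 1 of the 6 samples left out, 12 genes kept both calls, 6 lower (*rtn1*, *col1a1b*, *aebp1*, *enox1*, *pparb2b* and *stk3a*) and 6 higher (*egr1a*, *egr1b*, *cebpba*, *cebpda*, *vdraa* and *vdrab*). The number of genes called under both scalings was 38 without hatchery fish 1, 24 without fish 3, and 16 without fish 4. It was 18 without wild fish 6, 15 without fish 7 and 20 without fish 8.

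**Figure D1:**
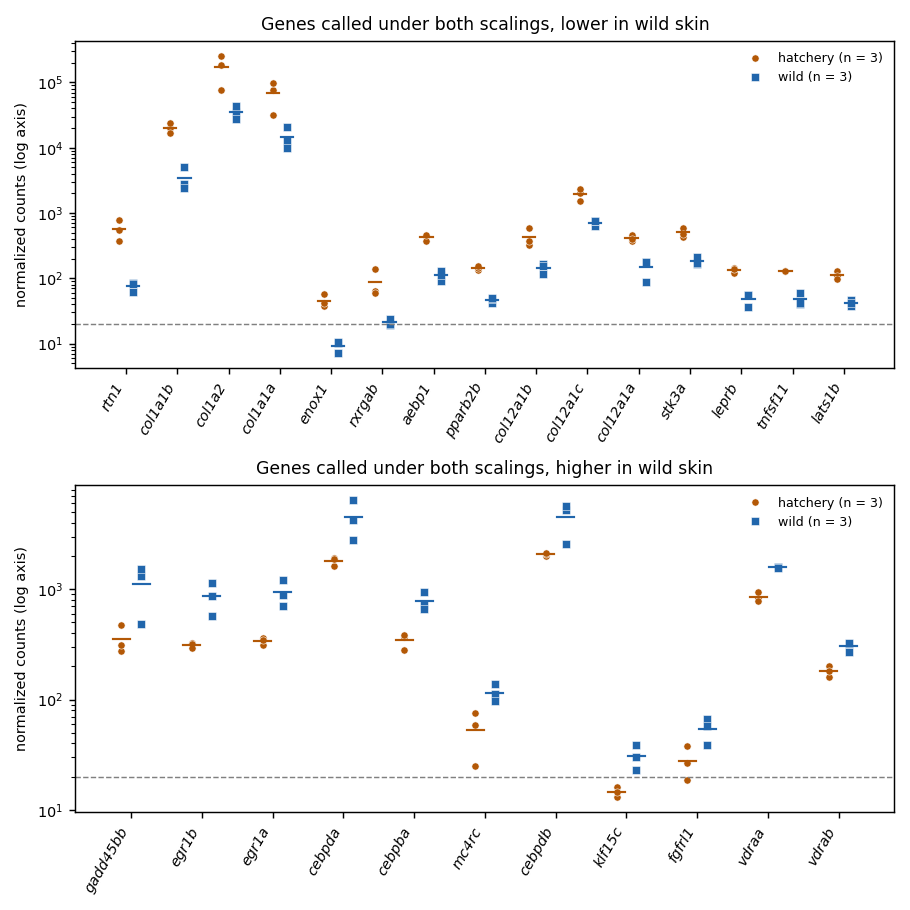
Normalized counts on a log axis of the 26 genes called with the same sign under both scalings, for hatchery fish 1, 3 and 4 (circles) and wild fish 6, 7 and 8 (squares), with the group means as bars and the threshold of 20 as a dashed line. For each of the 15 lower and 11 higher genes, the 3 wild fish lie on one side of the 3 hatchery fish.

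**Figure D2:**
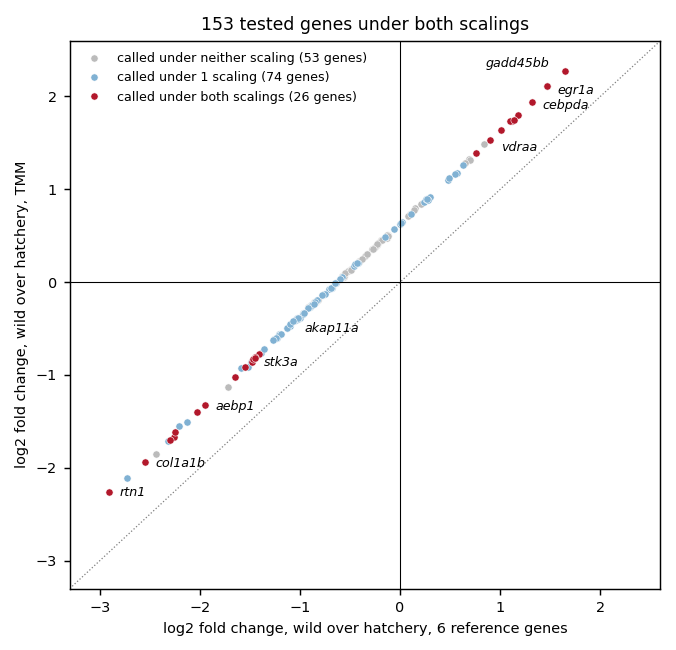
Log2 fold change of wild over hatchery skin for the 153 tested genes, scaled by the 6 reference genes (x axis) and by TMM (y axis), coloured by the scalings under which a gene was called. The points lie along a line above the dotted diagonal, by a median of 0.63 on the log2 scale.

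Type I collagen, the main fibre of the dermis, is built from the chains encoded by *col1a1* and *col1a2*. Counts of *col1a1b* were 19838, 16884 and 23545 in hatchery fish 1, 3 and 4, and 2741, 5155 and 2408 in wild fish 6, 7 and 8. Every wild fish lay far below the lowest hatchery fish, at a log2 change of -2.55 (SE 0.34, adjusted p = 0.0022), or 5.85-fold. With TMM the change was -1.93 (SE 0.31, adjusted p = 0.0060).

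The other chain genes were more uneven among hatchery fish. Counts of *col1a2* were 77856, 183534 and 258290 in hatchery fish 1, 3 and 4, against 34731, 43018 and 27801 in wild fish 6, 7 and 8. Counts of *col1a1a* were 31813, 76191 and 98913 in the hatchery fish, against 12619, 20776 and 9843 in the wild fish. For both genes the hatchery male, fish 1, was the lowest of its group and still above every wild fish. The log2 fold changes were -2.30 (SE 0.45, adjusted p = 0.0051) for *col1a2* and -2.26 (SE 0.47, adjusted p = 0.0065) for *col1a1a*. When only males were compared, 1 hatchery against 3 wild fish, they were -1.15 (adjusted p = 0.062) and -1.14 (adjusted p = 0.088), whereas *col1a1b* stayed at -2.53 (adjusted p = 0.011). The lone hatchery male was assumed to vary like the wild fish. With 1 sample left out at a time, *col1a2* and *col1a1a* each kept the calls under both scalings in 1 of 6 fits, while those with the reference genes held in all 6.

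These 3 genes alone took 48.9%, 65.4% and 75.2% of all gene counts in hatchery fish 1, 3 and 4, and 35.5%, 38.7% and 27.8% in wild fish 6, 7 and 8. The top gene was *col1a2* in every sample but wild fish 8, where it was the translation factor gene *ef1ab*.

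Type XII collagen decorates the surface of type I fibrils and is encoded here by 3 paralogs. Counts of *col12a1c*, the most abundant, were 1549, 2038 and 2373 in the hatchery fish and 625, 751 and 759 in the wild fish, a log2 change of -1.48 (SE 0.21, adjusted p = 0.0022). Counts of *col12a1b* were 587, 318 and 367 in hatchery skin and 117, 165 and 153 in wild skin (log2 fold change -1.55, SE 0.27, adjusted p = 0.0035). The third paralog, *col12a1a*, had 456, 369 and 404 counts in hatchery skin and 87.8, 177 and 178 in wild skin, where the immature fish 6 was lowest (log2 fold change -1.48, SE 0.28, adjusted p = 0.0043).

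The gene *aebp1*, whose product binds collagen in the extracellular matrix, had 445, 377 and 468 normalized counts in hatchery fish 1, 3 and 4, and 91.9, 114 and 128 in wild fish 6, 7 and 8. The groups were tight and far apart, with a log2 change of -1.95 (SE 0.19, adjusted p = 8.7e-04) and 3.87-fold less in wild skin. All 7 genes of the list of collagens and *aebp1* were called lower, under both scalings. Of all tested genes 47.7% were lower with the reference genes and 9.8% with TMM. Their median log2 fold change was -1.95, against -0.60 over all tested genes, and -1.32 against 0.04 with TMM.

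Scale and bone formation was represented by further genes. The ligand gene *tnfsf11*, known in mammals to drive the formation of bone-resorbing osteoclasts, had 128, 127 and 130 counts in hatchery skin and 40.4, 60.4 and 41.9 in wild skin. The hatchery fish were almost equal, every wild fish was lower, and the log2 fold change was -1.45 (SE 0.21, adjusted p = 0.0023). Its hatchery mean of 128.5 lay just under the highest negative control probe of fish 4, at 129. Of the collagenase genes, *mmp13c* was lower with the reference genes (29.9 ± 7.7 against 14.6 ± 3.03, SD, n = 3 each, adjusted p = 0.025) but not with TMM (adjusted p = 0.29). The paralog *mmp13a* had 29.7, 156 and 66.3 counts in hatchery skin and 91.9, 79.1 and 53.4 in wild skin and overlapped. In the bone remodelling list 2 of 3 tested genes were lower with the reference genes, beside 47.7% of all tested genes. Under both scalings it was 1, *tnfsf11*.

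The *sox9* genes encode regulators of cartilage, and in mammals also of hair follicles. All 4 paralogs were above 20, and 2 were lower with the reference genes, near the 47.7% of all tested genes. They were *sox9a* (2054 ± 296 against 1046 ± 125, log2 fold change -0.97, adjusted p = 0.0043) and *sox9b* (109 ± 67.7 against 21.9 ± 2.64, -2.32, adjusted p = 0.0088). Under TMM 0 of the 4 passed, with adjusted p-values of 0.11 and 0.055 for these genes. In *sox9b* the hatchery fish stood at 40.8, 110 and 176, where their highest negative control probe had 49.2, 89.9 and 129.

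Among the markers of dermis and scale (*col1a1*, *col12a1*, *aebp1*, *mmp13* and *tnfsf11* paralogs), 9 of 10 reached 20. Of these 8 were lower in wild skin with the reference genes, beside 47.7% of all tested genes. Their summed level was 54891 to 126300 in hatchery and 13587 to 27298 in wild skin. No keratin gene is on the panel, so the epidermis could not be checked. Both *myf5* genes, markers of muscle precursors, summed to 27.3 to 33.5 in hatchery and 24.5 to 40.4 in wild skin, where *myf5a* lay under 20 in all 6 samples. The adipocyte markers summed to 2404 to 2817 in hatchery and 1442 to 1856 in wild skin. Of these 6 markers 4 reached 20. All 4 were lower with the reference genes, beside 47.7% of all tested genes, and 0 with TMM. Among the liver markers, *apoc1a* had 3293, 833 and 2100 counts in hatchery and 757, 617 and 700 in wild skin (log2 fold change -1.59, adjusted p = 0.017, and 0.13 with TMM). Its paralog *apoc1b* had 213, 92.6 and 179 counts in hatchery and 71.7, 101 and 694 in wild skin, with wild fish 8 alone high. The log2 fold change of *apoc1b* was 0.83 (adjusted p = 0.40), and *spp2* had at most 20.9 counts in any sample. The part of these cell types in the differences was not tested.

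The largest fall of all was in *rtn1*, a reticulon gene of the endoplasmic reticulum best known from neurons and neuroendocrine cells, which lies with *six6a* on chromosome 9 in the RefSeq annotation of Ssal_v3.1. It had 782, 551 and 366 counts in hatchery fish 1, 3 and 4, and 61.6, 84.9 and 80.6 in wild fish 6, 7 and 8. The lowest hatchery fish was far above the highest wild fish, and each wild fish was above its own highest negative control probe. The log2 fold change was -2.91 (SE 0.31, adjusted p = 8.7e-04), 7.50-fold, and -2.26 with TMM (adjusted p = 0.0032). Of the other markers of neurons and retina, 2 of 10 reached 20, *otx2a* (32.5 ± 4.99 against 28.5 ± 9.03) and *rd3l* (20.2 against 21.6), and neither passed the test.

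A neighbour on chromosome 9, the amino acid transporter gene *slc38a6*, had 270, 153 and 159 counts in hatchery and 60.6, 84.9 and 81.7 in wild skin (log2 fold change -1.36, adjusted p = 0.0053), with an adjusted p of 0.055 under TMM. Of 15 tested panel genes that the annotation places on chromosome 9, 7 were lower and 1 was higher with the reference genes, a share of lower genes near the 47.7% of all tested genes. The higher one was *fgfrl1*, a fibroblast growth factor receptor-like gene, at 18.6, 37.6 and 26.4 counts in hatchery and 66.6, 57.6 and 38.7 in wild skin (log2 fold change 1.01, adjusted p = 0.031). Its call was lost when any of 4 samples was left out, hatchery fish 1 or 4 or wild fish 6 or 7. Each hatchery value of *fgfrl1* lay under the highest negative control probe of that fish, so the size of the change is uncertain. With the negative controls subtracted it was 3.16 on the log2 scale. A gene of an oxidase of the cell surface, *enox1*, had 37.1, 57.7 and 41.8 counts in hatchery and 10.1, 7.19 and 10.5 in wild skin (log2 fold change -2.24, SE 0.31, adjusted p = 0.0022). The wild fish were at the level of the negative controls, and each hatchery fish lay under its own highest negative control probe. With the negative controls subtracted the wild values were left near 0, so the log2 fold change of -5.49 gives no reliable size.

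The Hippo pathway restrains growth through kinases that keep the cofactors Yap1 and Wwtr1 (Taz) out of the nucleus, where these would otherwise bind TEAD factors, as does Vgll3. The kinase gene *stk3a* had 594, 436 and 482 counts in hatchery fish 1, 3 and 4, and 167, 171 and 209 in wild fish 6, 7 and 8. The groups did not overlap, with a log2 change of -1.47 (SE 0.19, adjusted p = 0.0022) and -0.83 under TMM (adjusted p = 0.013).

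The downstream kinase gene *lats1b* had 127, 107 and 97.2 counts in hatchery and 37.3, 46.0 and 41.9 in wild skin (log2 fold change -1.41, SE 0.20, adjusted p = 0.0022). The related *lats2b* was lower with the reference genes (-0.45, adjusted p = 0.040) and on the other side of 0 with TMM (0.19, adjusted p = 0.30). Of 6 tested Hippo kinase genes 3 were lower, near the 47.7% of all tested genes, 2 of them under both scalings, and with TMM 1 was higher, *lats2a* (473 ± 25.2 against 476 ± 33.9, log2 fold change 0.64 with TMM and 0.01 with the reference genes).

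All 7 TEAD genes were tested and 5 were lower with the reference genes (47.7% of all tested genes were), among them *tead1b* (846 ± 102 against 417 ± 39.5, log2 fold change -1.02, adjusted p = 0.0033), *tead2* (-1.09), *tead1a* (-1.03) and *tead1d* (-0.78). With TMM 0 of 7 passed and their median was -0.28. The cofactor gene *yap1* had 176, 101 and 123 counts in hatchery and 67.6, 50.4 and 72.2 in wild skin (log2 fold change -1.07, adjusted p = 0.011, and 0.21 with TMM). The cofactor gene *wwtr1a* was at -0.43 (adjusted p = 0.049) with the reference genes and 0.20 (adjusted p = 0.27) with TMM.

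Of the age-at-maturity genes themselves, only the *akap11* paralogs lay above 20 and above the mean of the negative controls in all 6 fish. The gene *akap11a*, on chromosome 25, encodes an anchor of protein kinase A. It had 111, 93.9 and 88.1 counts in hatchery fish 1, 3 and 4, and 50.5, 44.6 and 45.01 in wild fish 6, 7 and 8. The groups did not overlap and the log2 fold change was -1.06 (SE 0.19, adjusted p = 0.0035) with the reference genes, but -0.42 (SE 0.17, adjusted p = 0.090) with TMM. In hatchery fish 4 the count of *akap11a* lay under the highest negative control probe, at 129, as did its hatchery mean of 97.8. Its paralog *akap11b*, on chromosome 21, had 332, 122 and 115 counts in hatchery and 76.7, 138 and 90.0 in wild skin. Here the groups overlapped, hatchery fish 1 stood apart, and the log2 fold change was -0.92 (SE 0.45, adjusted p = 0.11). Hatchery fish 4 was again under its highest negative control probe.

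The cofactor gene *vgll3a* had 16.7, 20.1 and 17.3 counts in hatchery skin, where the mean of the negative controls was 17.1, 22.8 and 28.4, and 15.1, 11.5 and 17.8 in wild skin. It could not be told from background in the hatchery fish, and it was not tested because both group means were under 20. The genes *vgll3b* (6.07 ± 1.04 and 3.65 ± 2.42), *six6a* (7.64 ± 4.41 and 9.03 ± 5.23) and *six6b* (5.03 ± 2.08 and 3.00 ± 0.978, SD, n = 3 each) lay at or under the negative controls.

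**Figure D3:**
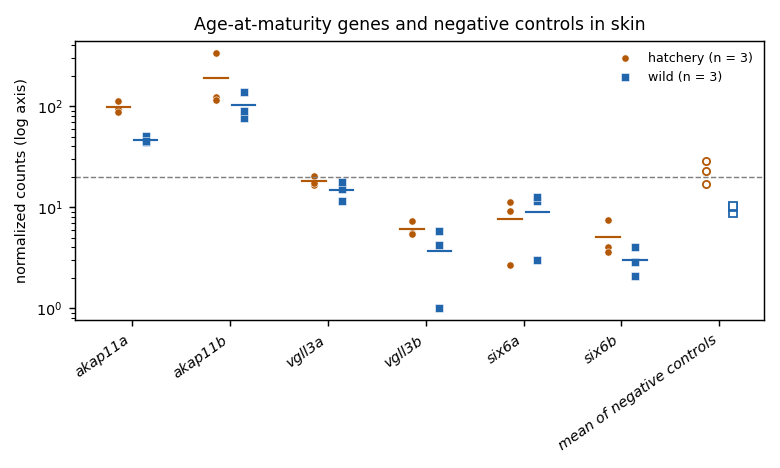
Normalized counts on a log axis of the 6 age-at-maturity genes and the scaled mean of the 8 negative control probes (open symbols) in hatchery (circles) and wild (squares) skin, with group means as bars and the threshold of 20 as a dashed line. Only *akap11a* and *akap11b* lie above the mean of the negative controls in all 6 fish, and hatchery control means (17.1 to 28.4) lie above wild ones (8.83 to 10.3).

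Akap11 holds the regulatory subunits of protein kinase A in place. Of 7 tested type II subunit genes, 6 were lower with the reference genes (47.7% over all tested genes), among them *prkar2bc* (181 ± 44.7 against 75.8 ± 6, log2 fold change -1.26, adjusted p = 0.0035), *prkar2ba* (-1.19), *prkar2ac* (-1.04) and *prkar2ad* (-1.02). Under TMM 0 of 7 passed, with a median of -0.40. Of 5 type I subunit genes 2 were lower with the reference genes, *prkar1ab* (-0.60) and *prkar1ac* (-0.89), a share not above the 47.7% of all tested genes. Neither passed with TMM, where *prkar1ab* was at 0.03. With TMM *prkar1ba* was called higher (1.16, adjusted p = 0.0165), which it was not with the reference genes (0.54, adjusted p = 0.11).

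Among genes higher in wild skin, those of the early response stood out. Egr1 is a transcription factor whose gene is switched on within minutes of many stimuli, and Gadd45b is a stress-induced protein. Counts of *egr1a* were 313, 364 and 344 in hatchery fish 1, 3 and 4, and 1220, 711 and 890 in wild fish 6, 7 and 8. Every wild fish was well above the highest hatchery fish, at a log2 change of 1.47 (SE 0.23, adjusted p = 0.0025), and 2.11 with TMM. The paralog *egr1b* gave a like picture, with 325, 318 and 294 counts against 1150, 577 and 864 (log2 fold change 1.47, SE 0.26, adjusted p = 0.0035). For both genes the immature wild fish 6 was highest.

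Counts of *gadd45bb* were 477, 274 and 313 in hatchery and 484, 1309 and 1537 in wild skin (log2 fold change 1.65, SE 0.43, adjusted p = 0.014). Here wild fish 6 was only just above hatchery fish 1, and with immature fish alone the log2 fold change was 0.45 (adjusted p = 0.34). Of 5 tested early response genes 3 were higher under both scalings, beside 11 of all 153 tested genes. The median log2 fold change of the list was 1.47 with the reference genes. The others were *gadd45ba* (0.63, adjusted p = 0.081, with TMM 1.26, adjusted p = 0.015) and *egr1d* (-0.22, adjusted p = 0.44).

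CEBP proteins are transcription factors of fat cell formation and of inflammation. Counts of *cebpba* were 280, 372 and 382 in hatchery and 722, 662 and 952 in wild skin (log2 fold change 1.18, SE 0.21, adjusted p = 0.0037). All 3 wild fish lay well above the hatchery fish, the immature one included. Counts of *cebpda* were 1642, 1902 and 1872 in hatchery and 2777, 4256 and 6441 in wild skin (log2 fold change 1.31, SE 0.30, adjusted p = 0.0094), and those of *cebpdb* were 2015, 2080 and 2126 against 2582, 5206 and 5692 (1.12, SE 0.30, adjusted p = 0.015).

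In both *cebpd* genes the mature wild fish 7 and 8 were higher than the immature fish 6, and with immature fish alone the log2 fold changes were 0.62 (adjusted p = 0.092) and 0.32 (adjusted p = 0.24). The lone immature wild fish was assumed to vary like the hatchery fish. The CEBP list did not move as one. The alpha members *cebpaa* and *cebpab* were lower with the reference genes (log2 fold changes -0.64 and -0.68) and at -0.01 and -0.06 with TMM. Of 5 tested members 3 were higher and 2 lower with the reference genes, and 3 and 0 under both scalings. Over all 153 tested genes these counts were 11 and 73, and 11 and 15.

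The vitamin D receptor is a nuclear receptor for the hormone form of vitamin D and regulates calcium handling and the skin. Counts of *vdraa* were 832, 942 and 779 in hatchery and 1605, 1594 and 1555 in wild skin, with little spread among wild fish (log2 fold change 0.90, SE 0.16, adjusted p = 0.0035). Counts of *vdrab* were 161, 200 and 183 against 322, 268 and 329 (0.76, SE 0.17, adjusted p = 0.0088). Both genes are part of the reference set. Without them in it the log2 changes were 1.31 and 1.17, while the median of all tested genes moved from -0.60 to -0.18. With TMM 4 of the 5 genes of the list were higher, beside 17.6% of all tested genes. Those added were *vdrac* (364 ± 80.3 against 510 ± 52.7) and *vdrad* (822 ± 86.6 against 991 ± 111). The pregnane receptor gene *nr1i2* was lower with the reference genes only (-0.97, adjusted p = 0.019).

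Among the metabolic regulators, *klf15c*, a Krüppel-like factor gene, had 13.0, 16.1 and 14.5 counts in hatchery, under the mean of the negative controls, and 30.3, 23.0 and 38.7 in wild skin (adjusted p = 0.014). No fold change is given, since its hatchery values were not above background. With TMM all 4 *klf15* genes were higher, beside 17.6% of all tested genes, and 1 with the reference genes, beside 7.19%. The melanocortin 4 receptor gene *mc4rc*, of a family that acts in appetite and energy balance, had 25.1, 75.1 and 59.0 counts in hatchery and 112, 138 and 96.3 in wild skin (log2 fold change 1.13, SE 0.37, adjusted p = 0.032). Hatchery fish 1 was lowest, and the call was lost without hatchery fish 4, wild fish 6 or wild fish 7. Each hatchery value of *mc4rc* lay under the highest negative control probe of that fish. With the negative controls subtracted the log2 fold change was 1.82. Its paralog *mc4ra* went the other way with the reference genes (-1.52, adjusted p = 0.044) and did not pass with TMM (adjusted p = 0.24). Counts of *mc4ra* were 13.0, 40.25 and 53.6 in hatchery and 10.1, 15.8 and 11.5 in wild skin, and overlapped. The paralogs *mc4rb* and *mc4rd* were under 20 in both group means and were not tested.

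The leptin receptor gene *leprb* went the other way, with 123, 146 and 137 counts in hatchery and 55.5, 36.0 and 55.5 in wild skin (log2 fold change -1.45, SE 0.22, adjusted p = 0.0025). Leptin itself, *lepb1*, and the other receptor *lepra* were under 20 in both group means. The gene *pparb2b*, for a fatty acid sensor of the PPAR family, had 134, 146 and 153 counts in hatchery and 41.4, 47.5 and 49.2 in wild skin, both tight (log2 fold change -1.65, SE 0.18, adjusted p = 8.7e-04). Of 6 tested PPAR genes 5 were lower with the reference genes, against a background of 47.7%, with *pparga* (-1.39), *ppargc* (-0.89) and *pparaa* (-0.75) among them, and only *pparb2b* under both scalings.

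The retinoid X receptors are partners of the PPAR, vitamin D and retinoic acid receptors. Of 9 tested genes of this list 6 were lower with the reference genes, beside 47.7% of all tested genes, among them *rxrab* (403 ± 4.98 against 170 ± 35.3, log2 fold change -1.24, adjusted p = 0.0025), *rxrac* (-0.69) and *rxrgaa* (-1.27). Under both scalings it was 1, *rxrgab*, at 64.0, 141 and 59.0 counts in hatchery and 19.2, 20.1 and 24.1 in wild skin (-2.03, SE 0.39, adjusted p = 0.0046), where hatchery fish 3 stood apart.

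Hormone and reproductive genes were mostly near background. Of 6 genes for gonadotropin subunits and receptors 2 were tested, and both were lower with the reference genes only, beside 47.7% of all tested genes. They were *cgaa* (29.8 ± 15.7 against 6.72 ± 0.842, log2 fold change -2.12) and *lhr* (77.9 ± 32.2 against 39.3 ± 8.68, -0.996). The glycoprotein hormone gene *glha2a* had 25.1, 68.4 and 89.0 counts in hatchery and 15.1, 7.19 and 4.19 in wild skin (-2.73, adjusted p = 0.0083). Each hatchery value lay under the highest negative control probe of that fish, in the same order, and the call was lost with TMM (adjusted p = 0.051). With the negative controls subtracted it held with the reference genes (adjusted p = 0.033) and not with TMM (adjusted p = 0.078), while the calls of *cgaa*, *lhr*, *pparga*, *rxrgaa*, *mmp13c* and the estrogen receptor gene *esr1* were lost. In all 21 of the 84 calls were lost by this subtraction, and 0 of the 26 made under both scalings. Of the 26 genes, 22 had a higher group mean at or above the highest negative control probe of that group. The others, *enox1*, *lats1b*, *rxrgab* and *tnfsf11*, lay under it.

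The androgen receptor genes *arb1* (151 ± 22.7 against 77.8 ± 19.9, log2 fold change -0.97, adjusted p = 0.0098) and *arb2* (125 ± 11.7 against 91.4 ± 7.05, -0.46, adjusted p = 0.049) and the growth hormone receptor gene *ghr1* (883 ± 51.7 against 540 ± 68.5, -0.71, adjusted p = 0.0094) were above the highest negative control probe in every fish. With the negative controls subtracted the call of *arb2* was lost (adjusted p = 0.215), and those of *arb1* (adjusted p = 0.032) and *ghr1* (adjusted p = 0.015) held. With TMM none of these 3 passed, and *arb2* was at 0.17. Of the GnRH list 1 of 8 genes was tested, *gnrhrb*, with 21.9 ± 7.78 against 11.8 ± 3.59 counts (-0.82, adjusted p = 0.089).

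The remaining lists held 0 calls under both scalings. The corepressor genes *aesa* (-0.90) and *tle1b* (-0.85), the housekeeping genes *hprt1* (-0.96) and *rpabc2a* (-0.86) and the adhesion gene *cadm2bb* (-2.21) were lower with the reference genes and did not pass with TMM. In *cadm2bb* hatchery fish 1 had 60.3 counts and the other 5 fish at most 12.7. Of the lists without a call with the reference genes, the most abundant members were *admb* (113 ± 7.89 against 113 ± 17.6, with TMM 0.63 on the log2 scale, adjusted p = 0.028), *six4* (56.8 ± 7.87 against 48.0 ± 12.1), *foxp3a* of regulatory T cells (47.9 ± 5.33 against 37.7 ± 4.97), *otx2a* and *myf5b* (22.9 ± 2.51 against 22.5 ± 4.57).

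**Figure D4:**
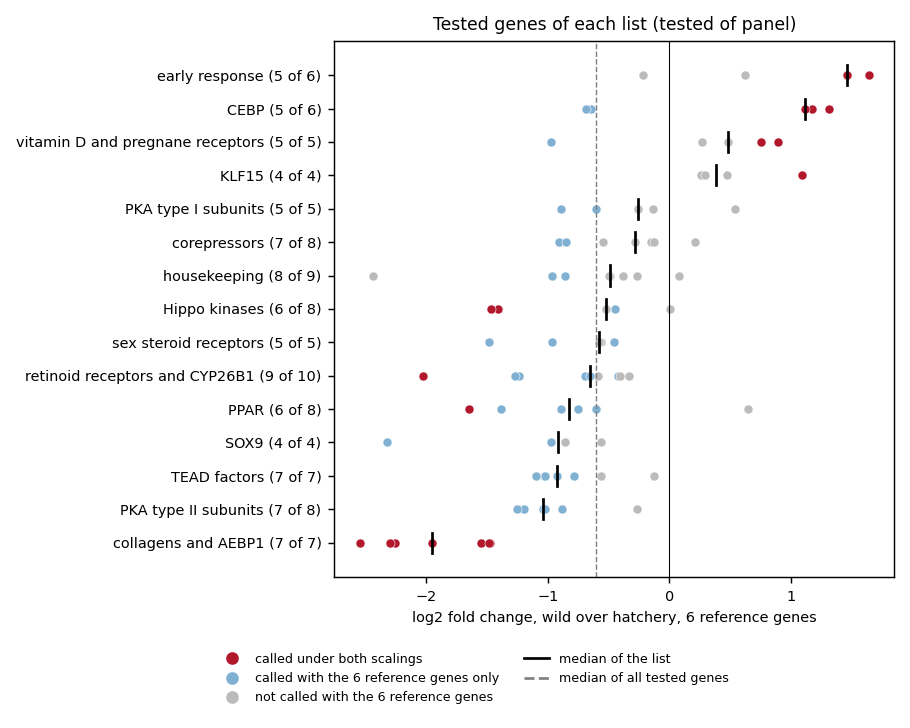
Log2 fold change of wild over hatchery skin, scaled by the 6 reference genes, for each tested gene of 15 lists with at least 4 tested genes, with the list median as a black bar and the median of all tested genes (-0.60) as a dashed line. The collagens and *aebp1* lie lowest with a median of -1.95, and the early response genes highest with a median of 1.47.

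In a few genes 1 fish stood apart from its group. Counts of *gapdh*, a glycolysis gene, were 1428, 19272 and 2246 in hatchery and 1518, 1895 and 813 in wild skin, with hatchery fish 3 far above the rest. Counts of *snai2a*, a transcription factor gene of mesenchymal and pigment cell precursors, were 682, 855 and 954 in hatchery and 18.2, 440 and 303 in wild skin. Wild fish 6 was at background level for *snai2a*, yet its paralog *snai2b* had 574 counts in the same fish. Counts of *epsti1*, an interferon-responsive gene in mammals, were 413, 413 and 392 in hatchery and 284, 273 and 1408 in wild skin, with wild fish 8 alone high. These 3 genes were singled out after their values had been seen.

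Whether a difference was particular to skin was asked in 1 fit of the 7 tissues, in which tissues came in part from the same fish. Gonad, also taken from both origins, was not part of this fit. The wild minus hatchery difference in skin differed from the mean difference in eye, gill, heart, kidney, liver and muscle for 1 of 215 tested genes (0.465%), *rtn1*, by -2.49 on the log2 scale (SE 0.40, adjusted p = 3.3e-05). Its own log2 fold change was -0.73 in gill, -1.56 in muscle, -1.49 in heart, -0.47 in liver, 0.50 in eye and 1.28 in kidney. It was called lower in muscle (adjusted p = 5.5e-04) and heart (adjusted p = 3.2e-04) and higher in kidney. A fall of *rtn1* was thus not particular to skin, while the mean of the other tissues joined both directions. In hatchery fish gill had 2674 to 4981 counts of *rtn1* and muscle 585 to 1167, so hatchery skin was the lowest of these 3 tissues by its mean.

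Between skin and gill, the other surface tissue, the difference itself differed for 3 of 204 genes (1.47%). These were *rtn1* (-2.17, SE 0.49), *col1a1b* (-3.20, SE 0.76) and *mc4rc* (3.05, SE 0.74), each with an adjusted p of 0.011. The other type I chain genes, *col1a1a* (-2.37) and *col1a2* (-2.08), went the same way without passing (adjusted p = 0.18 each). With TMM both passed, as did *mmp13c*. Gill held 1681 to 3605 counts of *col1a1b* in 4 hatchery fish and 1058 to 7188 in 3 wild fish, so that wild skin, at 2408 to 5155, lay within the range of wild gill, while hatchery skin lay above every gill sample. Gill *mc4rc* was at 10.4 to 71.3 in hatchery and 6.01 to 14.2 in wild fish, which overlapped, and the wild fish were not the higher group as they were in skin. Between skin and muscle 0 of 168 genes passed (0.0%), although 34 stood under 0.05 before adjustment. Scaling by TMM gave 0 calls and 38 such genes.

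The 15 genes lower and 11 higher in wild skin under both scalings were followed in the other tissues, beside the shares of all genes tested there. In gill 13 of the 15 lower genes were below 0 and 5 were called lower, where 86.1% of all genes were below 0 and 44.8% were called lower, so these counts were no larger than the background. In muscle 13 of 15 were below 0 and 9 were called (72.9% and 35.5% of all genes), and in eye 14 of 15 and 9 (59.6% and 29.8%). In heart 7 of 13 tested were below 0 and 4 were called (50.4% and 25.5%), in kidney 11 of 13 and 6 (68.7% and 50.3%), and in liver 10 of 13 and 2 (59.5% and 17.7%).

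Of the 11 higher genes, 9 were above 0 in gill and 4 were called higher, where 13.9% of all genes were above 0 and 2.99% were called higher. In muscle 9 of 10 tested were above 0 and 4 were called (27.1% and 5.16%), and in eye 7 of 11 and 2 (40.4% and 21.1%). In heart 8 of 10 were above 0 and 7 were called (49.6% and 26.3%), in kidney 6 of 10 and 6 (31.3% and 19.7%), and in liver 8 of 9 and 6 (40.5% and 6.96%). The gene *egr1a* was called higher in all 7 tissues, with log2 fold changes from 1.42 in liver to 3.97 in heart, and *gadd45bb* in all but eye. The gene *stk3a* was called lower in all but eye, and *leprb* in all but liver. All 3 type I collagen genes were below 0 in eye, kidney and liver and above 0 in heart, where *col1a1a* was at 1.42, and their signs were mixed in gill and muscle. The samples of the other tissues came from the same few fish, so they are no separate test of the habitats.

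**Figure D5:**
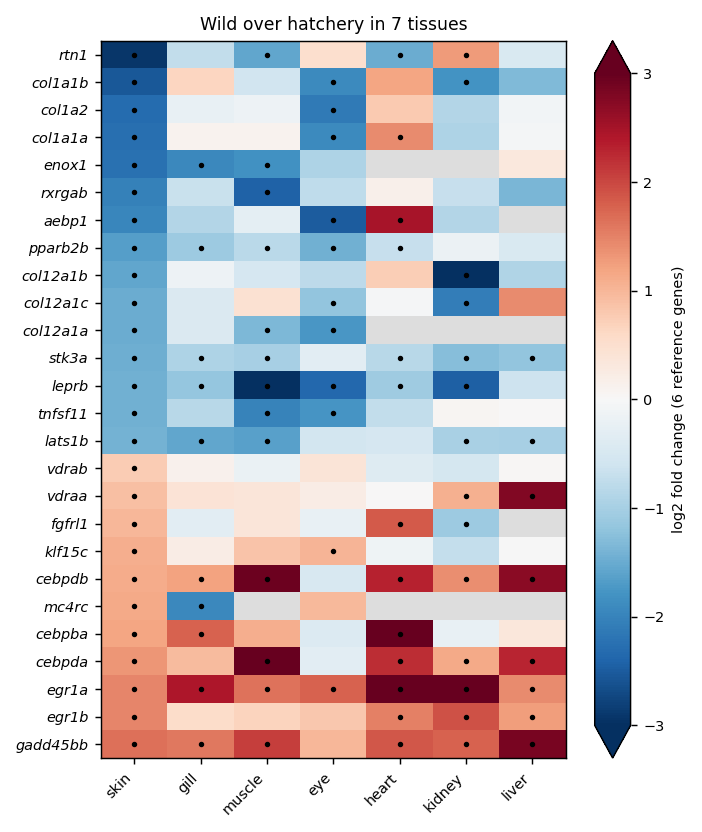
Log2 fold change of wild over hatchery parr in 7 tissues, scaled by the 6 reference genes, for the 26 genes called in skin under both scalings, with a dot where the adjusted p was under 0.05 and grey where a gene was not tested. The column of skin was used to choose the genes. The row of *egr1a* is red in every tissue, and the rows of *col1a1a* and *col1a1b* change colour between tissues.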

How the data were processed

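The deposited raw counts (220 genes, 8 negative and 6 positive control probes, 96 samples, nCounter with 100 ng of RNA) and the authors' normalized signal (211 genes, scaled in nSolver v3.0 by the geometric mean of 6 reference genes) were used. Each normalized signal equalled the raw count times this factor, which was computed here for all 220 genes, with a largest relative difference of 0.0094% over 7426 values. No genome build is named by the sources used here, and 169 genes were matched to the annotation of Ssal_v3.1 by accession. The 6 skin samples differed beyond counting noise in every pair (chi-square per degree of freedom of at least 19.3). Replicates are separate fish.

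The test was edgeR's quasi-likelihood F test on raw counts, with the logarithm of the factor as offset and Benjamini-Hochberg adjustment over the 153 genes whose hatchery or wild mean reached 20. The other 67 genes were not tested. Differences between tissues were contrasts in 1 fit of 7 tissues, without the 2 samples of a factor above 3.0. A fish number marks the same fish in every tissue by its label. Deviations from group means had a mean correlation of 0.14 over 129 pairs of tissues of 1 fish. The edgeR step was tested on simulated data. The skin groups share no fish.

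Named are the age-at-maturity and reference genes, up to 12 genes per direction with the largest change and no overlap, and up to 4 genes per list, or its most abundant gene where none was called. Other named genes were chosen after their values were seen. Tests, lists and alternatives were chosen with earlier results of these data known. Alternatives were TMM, other reference genes, positive control scaling, DESeq2, limma on log2 of the normalized count plus 1, other filters, negative controls subtracted, males or immature fish alone, 7 tissues in 1 fit, and each sample left out. The set called under both scalings, TMM with males or immature fish alone, the limma fits of 7 tissues with cartridge as a block, the reference set without vitamin D receptors and the filter at the highest negative control were added after the values were seen. The tools were DESeq2 1.42.0, limma 3.58.1 and edgeR 4.0.16 in R 4.3.3. The result of 1 list is not reported here.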

Additional observations from a re-analysis of the deposited data

Results flagged for a closer look

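The wild minus hatchery difference of *rtn1* in skin was lower than the mean of the other 6 tissues by -2.49 on the log2 scale and lower than that in gill by -2.17, both past the test of the difference itself. Against gill, *col1a1b* differed by -3.20 and *mc4rc* by 3.05. The negative control probe with the highest level had 53, 67 and 142 raw counts in hatchery fish 1, 3 and 4, and 19 in each of the wild fish. Groups of 3 fish were not tested for outlying samples.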

How the results depend on the processing

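The 84 calls (11 higher, 73 lower in wild skin) became 42 with TMM (27 and 15), 55 with DESeq2's own size factors (29 and 26), 52 with 4 reference genes without the vitamin D receptors (19 and 33) and 47 with positive control scaling (36 lower). They were 21 with immature fish only (4 and 17), 12 with these under TMM (4 lower), 31 with males under TMM (17 and 14), 54 in the limma fit of 7 tissues (4 higher; 7 with cartridge as a random block), and 48 genes were lower with the filter above the highest negative control. Leaving out 1 sample gave 62 to 80 calls, 7 to 12 higher and 52 to 69 lower. The 26 genes called under both scalings became 15 to 38, with 7 to 12 higher and 7 to 27 lower, and 8 with immature fish only (4 and 4). Of these the lower ones were 26 with DESeq2 and 23 with negative controls subtracted. The cause was not tested.

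With fish as a replicate block, since tissues of 1 number come from 1 fish, the difference of skin from the other tissues was called for 1 gene, from gill for 3 and from muscle for 0, as without the block. Leaving out 1 skin sample gave 1 to 2 genes for the first, and TMM gave 6 against gill, adding *col1a1a*, *col1a2* and *mmp13c*. The skin groups hold different fish, so no block applies within skin.

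With negative controls subtracted, the level in hatchery and wild skin was 75.1 and 36.9 for *akap11a* and 0 and 5.07 for *vgll3a*. It was 0 and 1.22 for *six6a*, and 0 in both for *vgll3b* and *six6b*. The scaled mean of the negative controls averaged 22.8 in hatchery and 9.75 in wild skin, with a large part from the highest probe. Before subtraction *vgll3a* was not lower in hatchery skin by its mean, so these values do not show expression in wild skin alone.

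For some genes the sign of the log2 fold change turned, among them the called *wwtr1a*, *lats2b*, *arb2* and *prkar1ab*. With TMM and with DESeq2's own size factors these were 0.20 and 0.15 for *wwtr1a*, 0.19 and 0.14 for *lats2b*, 0.17 and 0.11 for *arb2*, and 0.13 and 0.082 for *rps20*, and 0.030 with TMM for *prkar1ab*. With TMM, DESeq2's own size factors and the set without vitamin D receptors they were 0.41, 0.35 and 0.19 for *six4*, 0.45, 0.39 and 0.24 for *otx2a*, 0.28, 0.23 and 0.062 for *foxp3a*, 0.63, 0.57 and 0.42 for *myf5b*, 0.36, 0.29 and 0.15 for *ef1ac*, and 0.38, 0.32 and 0.16 for *prkar1aa*. With negative controls subtracted they were 0.17 for *six4*, 0.87 for *otx2a*, 0.13 for *gnrhrb*, 0.13 for *foxp3a*, 3.14 for *myf5b* and 0.12 for *ef1ac*. Those of *gnrhrb* and *myf5b* give no reliable size. Their hatchery means of 21.9 and 22.9 lay near the scaled negative control mean of 22.8 in hatchery skin. Positive control scaling gave 0.026 for *six4*, 0.059 for *otx2a* and 0.24 for *myf5b*. Males only gave 0.10 for *ef1ac* and 0.17 for *myf5b*. For *myf5b* the 4 reference genes gave 0.12, immature fish 0.14, the cartridge block 0.017, and leaving out hatchery fish 4 or wild fish 7 gave 0.086 and 0.14, in a range of -0.091 to 0.14 over the samples left out. For *ef1ac* that range was -0.48 to 0.0044, the highest without hatchery fish 4. For *admb* it was -0.27 with immature fish, -0.0024 with limma and its fit of 7 tissues, and -0.039, -0.014, -0.090 and -0.032 without hatchery fish 1 or 3 or wild fish 7 or 8.

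The number of fish (3 a group) and background counts of up to 129 for the highest negative control probe in hatchery skin limit the precision of genes near 20 counts. Totals were lower in wild skin, and whether this changed the precision was not tested. Of the 84 called genes, 24 had a higher group mean under the highest negative control.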
